A study of Homo sapiens with 9 samples.

Results

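MOLM13 cells that received the second of 2 short hairpin RNAs (shRNA) against YTHDC1 were compared with MOLM13 cells that received a control shRNA. MOLM13 is a human acute myeloid leukemia line that carries a KMT2A fusion and an activated FLT3 receptor. The comparison uses 6 of the 9 RNA-seq libraries of the series, 3 with YTHDC1 shRNA 2 and 3 with control shRNA, taken from the deposited count table by their column names. The other 3 libraries, with YTHDC1 shRNA 1, enter only where the shRNAs are set against each other. All groups were treated alike apart from the shRNA: the cells were infected with virus by spinning in 10 ug/ml polybrene, left for 48 h, and then kept for 48 h in 3 ug/ml puromycin. From each sample, 1 ug of RNA went into a stranded messenger RNA kit. Each group is thus a selected bulk population of 1 cell line, uninfected cells are not among the groups, and nothing in the labels says whether the replicates of a group were grown as separate cultures. Every p-value below is thus a statement about the spread of these libraries, some or all of which may be technical. All genes are described: of 25679 gene symbols in the table, 16454 held enough reads in the 6 libraries to be tested.

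YTHDC1 is the nuclear reader of N6-methyladenosine (m6A), a methyl mark that a writer complex around METTL3 and METTL14 places on nascent messenger RNA. It binds marked RNA in the nucleus and is known for effects on splicing, polyadenylation, export and the stability of marked transcripts. Leukemia cells with a KMT2A fusion are held in a dividing, immature state by a program that includes HOXA genes, MEIS1, MYB and MYC, and cells of this line can take on monocyte and macrophage features when that state is lost.

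With shRNA 2, genes of DNA replication and cell division were far lower than with control shRNA, and genes of macrophages, lysosomes, chemokines and NF-kB feedback were far higher. All 34 measured genes of the replication origin and fork fell, as did all 26 mitotic kinase and checkpoint genes, while 31 of 35 monocyte and macrophage surface markers rose. Over all genes, 31.7% rose and 30.8% fell, so a count within a list is read against these shares. A gene was tested if 3 libraries held at least 0.172 CPM of it, so a gene scarce in the controls could enter through shRNA 2 alone and then had to be higher there. Of all genes tested, 1018 (6.19%) entered only through shRNA 2 and 589 only through control; among the surface markers it was 8 of 35 through shRNA 2, and counts of lists with such members describe the members that entered and lend no support. CDK1, the kinase that drives entry into mitosis, had 5.85, 7.16 and 4.39 CPM with shRNA 2, against 146, 112 and 106 CPM with control shRNA (log2 fold change -4.37 ± 0.23, edgeR adjusted p = 7.8e-06). CD163, the scavenger receptor of macrophages, had 10, 5.98 and 7.13 CPM with shRNA 2, against 0.0637, 0.126 and 0.0601 CPM with control shRNA (log2 fold change 6.51 ± 0.32, edgeR adjusted p = 1.12e-07). Both genes kept the groups wholly apart, in opposite directions; CD163 is one of the 8. CPM are counts scaled to the library total with edgeR's TMM factors, in the usual unit; they are not divided by transcript length, so levels of different genes are not compared. A change written as a number with ± is the log2 fold change of shRNA 2 over control and its standard error (SE), from the fit with all 6 libraries unless said otherwise.

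The shRNA 2 libraries held 26455645, 50974530 and 47243435 counts over the kept genes, and the control libraries held 67124014, 65588658 and 66839132. Replicate 1 of shRNA 2 is therefore the shallowest of the 6, and it also stood apart in content. Its log2 CPM correlated with those of replicates 2 and 3 across genes at 0.9082 and 0.9057, whereas replicates 2 and 3 correlated with each other at 0.993 and the controls among themselves at 0.9922 to 0.9952. The first principal component, with 68.8% of the variance, separated the shRNA 2 libraries at 140, 45.1 and 49.7 from the controls at -80.1, -77.9 and -76.7. The second, with 25.7%, placed replicate 1 of shRNA 2 at 76.8, its fellow replicates at -63.9 and -69.3, and the controls between 17.2 and 21.9.

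Replicate 1 was short of reads for a set of genes. Of 10613 genes with at least 5 CPM in both other shRNA 2 libraries, 503 (4.74%) stood at under 0.5 times the level of each of them, and 105 of these had no read at all. The same count was 0 in each of the other shRNA 2 libraries and 4, 0 and 0 in the controls. Over the 10110 genes that were not low, a remainder fixed by leaving the low ones out, replicate 1 differed from its fellows by a median log2 ratio of 0.02 with an SD of 0.2, and correlated with them at 0.99 and 0.992. Some of these also stood apart, as ACP5 did with 53.3, 27.9 and 23.4 CPM and CTSD with 132, 65.2 and 70.3 CPM in the shRNA 2 libraries, replicate 1 being the highest.

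One block of the low genes lay where the build of the counts, hg19, carries a stretch of the genome more than once. All 125 measured genes of the MHC stretch of chromosome 6, TRIM27 to DAXX, were low, 64 of them at 0 counts. All 10 of the chromosome 17 stretch from ARHGAP27 to WNT3 were low, and so was YTHDC1, the 1 measured gene of the chromosome 4 stretch. All 14 genes of the pseudoautosomal stretch of X, PLCXD1 to CD99, a stretch looked at after values were seen, had 0 counts. Elsewhere 353 of 10463 genes (3.37%) were low, among them 101 of the 222 measured pseudogenes. TNF, the inflammatory cytokine of the MHC stretch, had 0, 1239 and 1166 CPM with shRNA 2, against 340, 377 and 370 CPM with control shRNA. RPS18, a ribosomal protein gene of that stretch, had 0.126, 16342 and 15906 CPM with shRNA 2, against 21998, 21323 and 21284 CPM with control shRNA. In both genes, replicates 2 and 3 of shRNA 2 lay at levels of their own and only replicate 1 was near 0. The treatment of reads that map to more than 1 place is not given in the sources used here, and the cause of the missing reads was not tested. For such genes the values without replicate 1 are given.

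**Figure D1:**
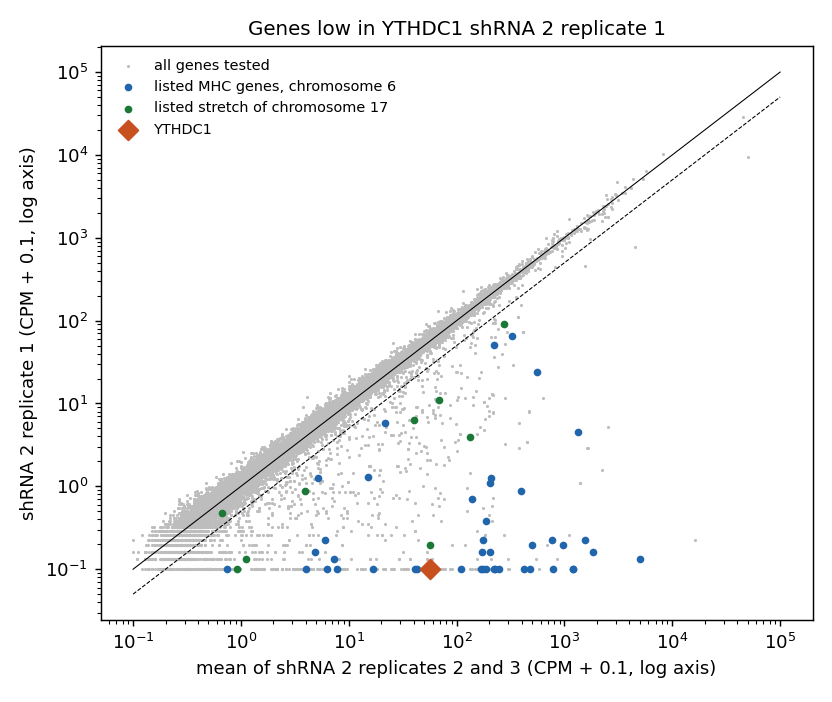
CPM of each gene tested in shRNA 2 replicate 1 (vertical) against the mean of replicates 2 and 3 (horizontal), both on log axes with 0.1 added. The solid line marks equal levels and the dashed line 0.5 times; the listed genes of the MHC stretch (blue), those of the chromosome 17 stretch (green) and YTHDC1 (diamond), at 0 CPM in replicate 1, lie under the solid line, while most genes follow it.

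YTHDC1 itself is among the genes that replicate 1 lacks, so the check of the knockdown rests on the other libraries. It had 0, 61.4 and 52.4 CPM with shRNA 2, against 134, 139 and 122 CPM with control shRNA. In reads, these were 0, 3212 and 2566 with shRNA 2, against 8400, 8809 and 8135 with control shRNA. Replicates 2 and 3 lay below every control, and without replicate 1 YTHDC1 fell (log2 fold change -1.21 ± 0.11, edgeR adjusted p = 6.53e-07). With all 6 libraries the log2 fold change was -1.78 ± 1.75 and did not pass the test (edgeR adjusted p = 0.436). In replicate 1, which also had no read of 64 MHC genes and 14 pseudoautosomal genes, the knockdown and the missing reads cannot be told apart.

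Of the 16454 genes tested, 10295 (62.6%) passed the edgeR quasi-likelihood test at an adjusted p of 0.05 with all 6 libraries, 5219 (31.7%) higher and 5076 (30.8%) lower. Without replicate 1, 10824 of 16902 genes (64.0%) passed, 5368 (31.8%) higher and 5456 (32.3%) lower. Of the genes called with 6 libraries, 9731 (94.5%) were called the same way with 5, and 0 were called the opposite way. The 503 low genes show where the repeat matters: with 6 libraries 10 of them rose and 9 fell, and with 5 libraries 173 rose and 172 fell. A change past 2-fold, tested as such, was called for 1611 higher genes (9.79%) and 1015 lower genes (6.17%) with 6 libraries, and for 1686 (9.98%) and 1135 (6.72%) with 5. The median log2 fold change over all genes was -0.01. Every shRNA 2 library lay above every control for 5624 genes (34.2%) and below every control for 5847 (35.5%).

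**Figure D2:**
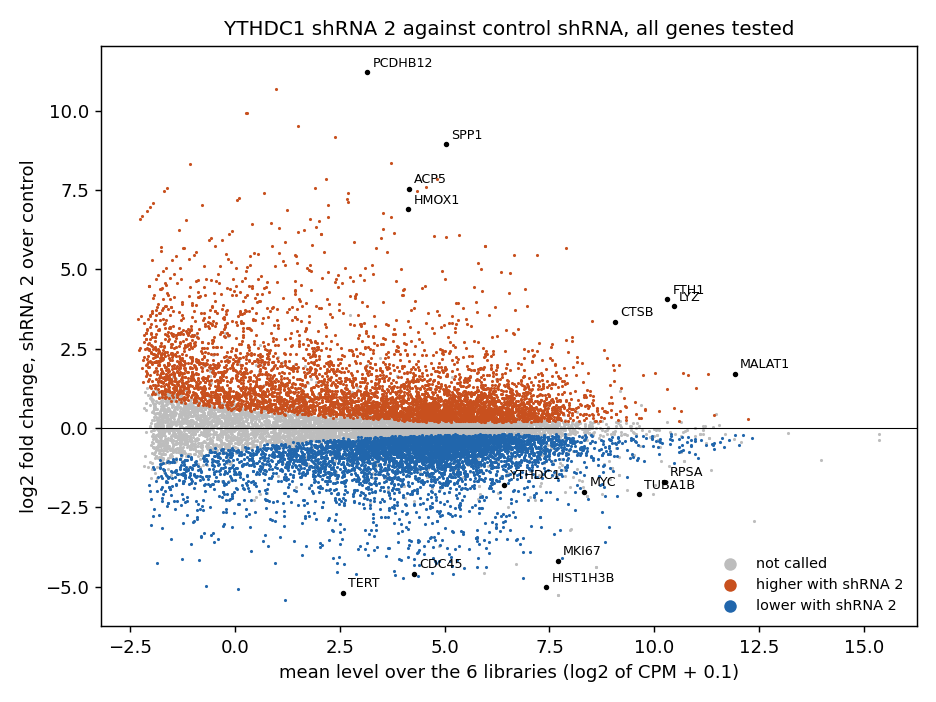
Log2 fold change of shRNA 2 over control from the fit with 6 libraries (vertical) against mean level, as log2 of CPM + 0.1 (horizontal). Each point is 1 of the 16454 genes tested; red marks the 31.7% called higher, blue the 30.8% called lower and grey the rest, and black points are genes labelled by name, among them YTHDC1, which did not pass in this fit.

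The share of genes that rose was higher among protein-coding genes of longer span and among long noncoding RNAs. Of 1438 long noncoding RNA genes tested, 549 (38.2%) rose and 241 (16.8%) fell, with a median log2 fold change of 0.29; of 13619 protein-coding genes, 32.2% rose and 33.3% fell, with a median of -0.03. Of 528 transcribed pseudogenes tested, 26.1% rose and 9.85% fell, with a median of 0.07. Outside the repeated stretches, 101 of 222 measured pseudogenes were low in the shallowest knockdown library. Of all 503 genes low there, 10 rose and 9 fell in the fit with that library, against 173 and 172 without it. The pseudogene shares were not counted without that library, so they do not show that pseudogenes changed less. The protein-coding genes alone were ranked by the length they span on the genome and cut into 5 classes of nearly equal size. Of the shortest class 22.4% rose, then 25.4%, 30.5%, 35.8% and 47.0% of the longest. The shares that fell ran the other way, at 39.2%, 37.0%, 35.5%, 31.5% and 23.2%. The median log2 fold change was -0.23 in the shortest class, whose middle gene spans 5.02 kb, and 0.27 in the longest, whose middle gene spans 155 kb. Of the least expressed of 5 classes by level, 37.0% rose and 12.4% fell. The part of level in the other shares was not tested. Of all genes tested, 1018 entered only through the knockdown libraries, and so had to be higher there, against 589 only through control. The part of this filter in the shares of the least expressed class and of the long noncoding RNAs was not tested. Chromosome 22 had 22.4% of its genes higher and 39.0% lower. These shares describe genes, which are not independent of each other, and carry no test.

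**Figure D3:**
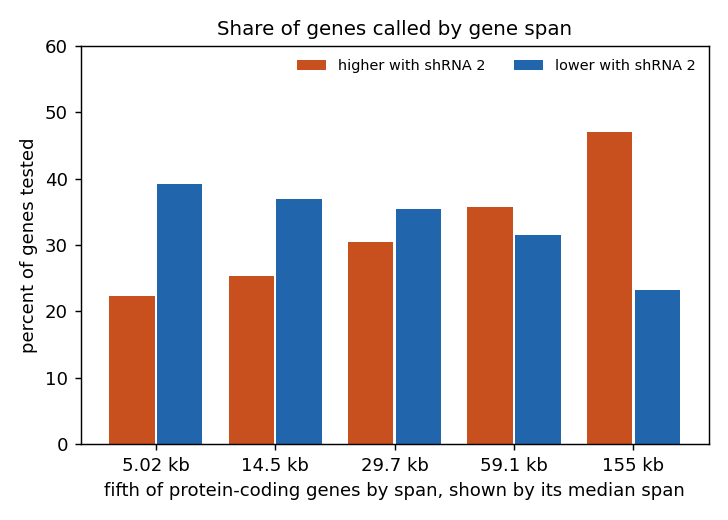
Share of protein-coding genes that rose and fell with shRNA 2 over control in 5 classes of genomic span, short to long, in percent. The share that rose climbs to 47.0% in the longest class and the share that fell drops to 23.2% there.

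The largest rises were genes that were close to silent with control shRNA. A rule that took the 15 largest log2 rises among genes with at least 10 CPM, called with and without replicate 1 and with every shRNA 2 library beyond every control, named protocadherins, macrophage genes and chemokines. Of these, 2 stood at so few control reads that a ratio of reads with its 95% interval, which covers counting error only, is given in place of a fitted fold. PCDHB12, a clustered protocadherin, had 17.2, 18.4 and 17 CPM with shRNA 2, against 0, 0 and 0.015 CPM with control shRNA; scaled to the library totals, its summed counts were 3741 times those of the controls (671 to 147808), on 1 control read. SLC26A11, an anion transporter, had 14.7, 8.16 and 7.68 CPM with shRNA 2, against 0, 0 and 0.0451 CPM with control shRNA, a ratio, scaled in the same way, of 677 (231 to 3287) on 3 control reads. The reads that these genes hold with shRNA 2 are thus well above counting error, while the fold itself is poorly set.

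SPP1, which encodes the secreted matrix protein osteopontin, had 90.2, 56 and 47.6 CPM with shRNA 2, against 0.112, 0.142 and 0.135 CPM with control shRNA (log2 fold change 8.95 ± 0.38, edgeR adjusted p = 7.09e-06). ACP5, the tartrate-resistant acid phosphatase of osteoclasts and some macrophages, had 53.3, 27.9 and 23.4 CPM with shRNA 2, against 0.143, 0.205 and 0.21 CPM with control shRNA (log2 fold change 7.54 ± 0.51, edgeR adjusted p = 0.000131). CLEC7A, the macrophage receptor for fungal beta-glucan, had 49.6, 37.2 and 33.2 CPM with shRNA 2, against 0.351, 0.158 and 0.165 CPM with control shRNA (log2 fold change 7.48 ± 0.34, edgeR adjusted p = 4.03e-06). Each control library held under 1 CPM of all 3, and each shRNA 2 library over 20 CPM. HMOX1, the enzyme that breaks down heme, had 46.5, 27.2 and 29.2 CPM with shRNA 2, against 0.366, 0.236 and 0.27 CPM with control shRNA (log2 fold change 6.89 ± 0.31, edgeR adjusted p = 2.77e-06). ADAMDEC1, a metalloproteinase-like protein of macrophages and dendritic cells, had 60.6, 51.9 and 56 CPM with shRNA 2, against 0.191, 0.268 and 0.27 CPM with control shRNA (log2 fold change 7.85 ± 0.15, edgeR adjusted p = 2.07e-09). KCP, a secreted modulator of bone morphogenetic protein signalling, had 18.1, 9.42 and 10.4 CPM with shRNA 2, against 0.0637, 0.0788 and 0.12 CPM with control shRNA (log2 fold change 7.14 ± 0.38, edgeR adjusted p = 1.94e-06). ABCA9, a transporter of the ABC family, and FAM71F2 rose (6.26 ± 0.17 and 6.65 ± 0.18). CCL4L1 and CCL4L2, near-identical copies of the chemokine gene CCL4, were also in this set, but share reads and were low in replicate 1, so their values are uncertain. CCL4L2 had 0.348, 20.4 and 17 CPM with shRNA 2, against 0.0637, 0.0945 and 0.0601 CPM with control shRNA.

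The largest falls by the same rule, which fixes that the groups do not overlap, were mostly genes of the cell cycle. TERT, the catalytic subunit of telomerase, led them at 0.348, 0.172 and 0.409 CPM with shRNA 2, against 7.55, 11.2 and 15.2 CPM with control shRNA (log2 fold change -5.19 ± 0.40, edgeR adjusted p = 3.49e-05). HJURP, the chaperone that loads the centromeric histone, had 0.948, 1.51 and 0.96 CPM with shRNA 2, against 33.8, 30.1 and 28.7 CPM with control shRNA (log2 fold change -4.72 ± 0.18, edgeR adjusted p = 3.43e-08). PBK, a mitotic kinase, had 1.17, 1.3 and 0.756 CPM with shRNA 2, against 30.6, 25.3 and 24.5 CPM with control shRNA (log2 fold change -4.63 ± 0.20, edgeR adjusted p = 7.68e-08). The level with shRNA 2 was thus a small fraction of the control level in all 3. KIF18B, a mitotic kinesin, had 0.664, 0.592 and 0.449 CPM with shRNA 2, against 12.7, 13.6 and 15.5 CPM with control shRNA (log2 fold change -4.61 ± 0.17, edgeR adjusted p = 2.49e-08). CDC45, part of the replicative helicase, had 1.64, 1.91 and 0.981 CPM with shRNA 2, against 39.8, 37.1 and 33.5 CPM with control shRNA (log2 fold change -4.59 ± 0.23, edgeR adjusted p = 1.85e-06). MCM10, which is needed to start the fork, had 2.91, 3.55 and 2.25 CPM with shRNA 2, against 77.6, 72.5 and 60.1 CPM with control shRNA (log2 fold change -4.58 ± 0.19, edgeR adjusted p = 2.06e-07). BIRC5 (survivin), E2F2, AURKB and RRM2, the last of these a subunit of ribonucleotide reductase, fell (-4.56 ± 0.17, -4.52 ± 0.20, -4.51 ± 0.13 and -4.41 ± 0.27). The histone genes HIST1H3B, HIST1H2AJ, HIST1H2AB and HIST1H2BM complete the set with log2 fold changes of -5.01, -4.71, -4.66 and -4.39; such genes have near-identical copies, and reads can be split between them.

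**Figure D4:**
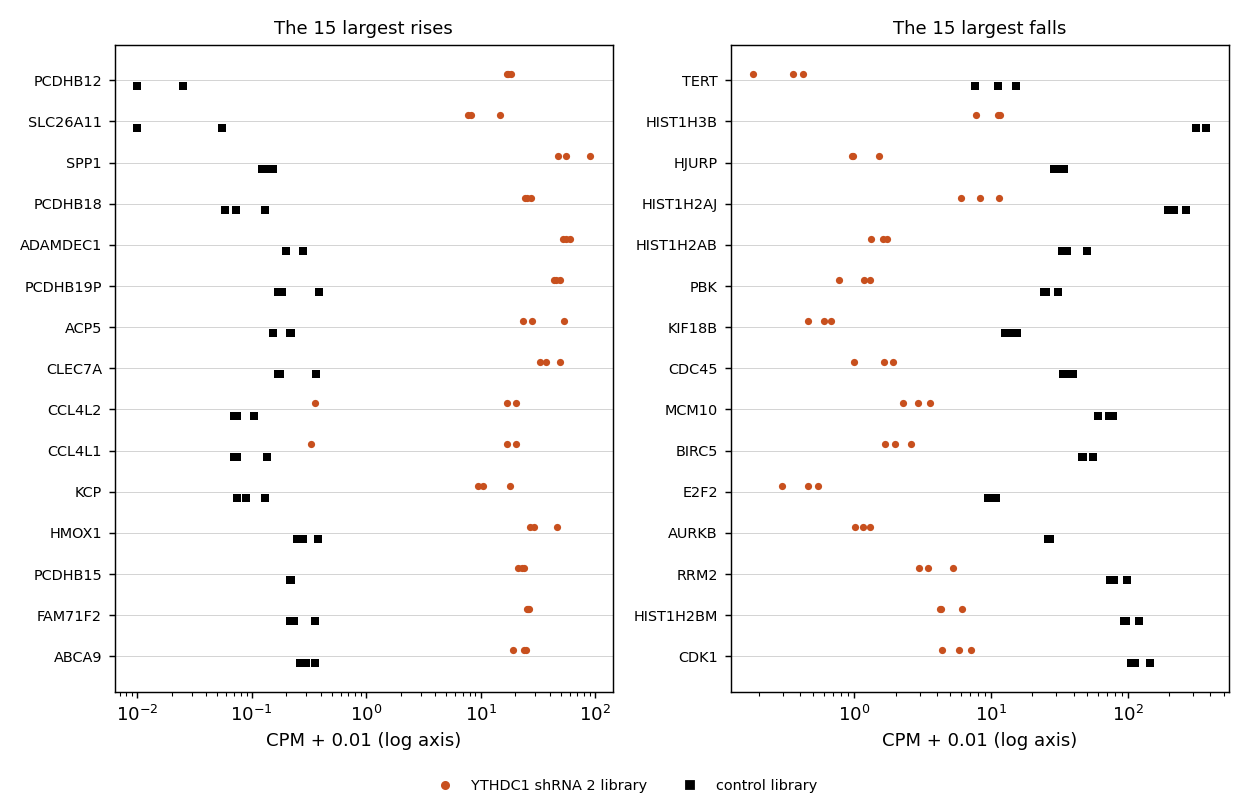
CPM + 0.01 on a log axis for the 15 largest rises (left) and the 15 largest falls (right), with 1 point per library and shRNA 2 (circles) drawn just above control (squares) in each row. The genes were chosen among those whose groups do not overlap, so the gap in each row follows from the choice; the CCL4L1 and CCL4L2 circles nearest the controls are replicate 1.

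In absolute CPM, the gains and losses fell on other genes than the folds did. MALAT1, a nuclear long noncoding RNA, gained 4095 CPM in the mean, with 6420, 5855 and 5494 CPM with shRNA 2, against 1629, 1672 and 2181 CPM with control shRNA (log2 fold change 1.71 ± 0.12, edgeR adjusted p = 1.79e-06). SRGN, the proteoglycan of secretory granules, gained 2611 CPM, and LYZ, the lysozyme of monocytes and macrophages, gained 2461 CPM. FTH1 and FTL, the chains of the iron store ferritin, gained 2254 and 1858 CPM; FTH1 has many processed copies, so its level is uncertain. LCP1, AHNAK, FLNA, TMSB4X and ACTB, all of the cytoskeleton or the cell cortex, gained 1775, 1677, 876, 1000 and 719 CPM. MDM2, the ubiquitin ligase of p53, gained 1109 CPM and the lysosomal protease CTSB gained 874. The losses were ribosomal proteins and growth genes. RPLP0 changed by -1523 CPM, RPL7 by -1358, RPL3 by -1347, RPSA by -1274, RPL12 by -1267, RPL6 by -1022 and RPL13A by -974; ribosomal protein genes have many processed copies, so these are uncertain in size. NPM1, the nucleolar chaperone nucleophosmin, changed by -1153 CPM, with 1306, 1543 and 1474 CPM with shRNA 2, against 2983, 2592 and 2208 CPM with control shRNA (log2 fold change -0.83 ± 0.11, edgeR adjusted p = 0.000135). EEF2 and EEF1G, which are translation elongation factors, EIF4B, an initiation factor, and TUBA1B, an alpha-tubulin, changed by -1117, -973, -1053 and -983 CPM.

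Genes of the replication machinery fell together. All 34 listed genes of the origin and fork were called lower, against 30.8% of all genes, with a median log2 fold change of -2.40 against -0.01 over all genes. MCM2, of the ring-shaped helicase that is loaded at origins, had 18.7, 16.6 and 13.5 CPM with shRNA 2, against 136, 135 and 128 CPM with control shRNA (log2 fold change -3.01 ± 0.12, edgeR adjusted p = 3.07e-08). MCM7 of the same ring had 28.3, 29.8 and 25.2 CPM with shRNA 2, against 260, 228 and 223 CPM with control shRNA (log2 fold change -3.07 ± 0.10, edgeR adjusted p = 1.44e-08). Each library with shRNA 2 held well under the lowest control level of both. The other subunits MCM3, MCM4, MCM5 and MCM6 fell (-2.03 ± 0.10, -2.39 ± 0.09, -2.61 ± 0.11 and -2.19 ± 0.12). CDC6 and CDT1, which load the ring, fell (-4.25 ± 0.16 and -3.57 ± 0.16), as did GINS2 (-3.77 ± 0.18), which joins it at the fork. The smallest falls were those of PCNA, the sliding clamp, at -1.18 ± 0.10, and DBF4, the activator of CDC7, at -0.67 ± 0.11.

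The enzymes that supply and repair DNA went the same way. All 18 genes of nucleotide synthesis fell, with a median of -1.57, led by RRM2, TK1 (-4.00 ± 0.15), which is thymidine kinase, and RRM1 (-2.94 ± 0.11). Of 20 genes of recombination and Fanconi repair, 18 fell and 0 rose, with a median of -2.16. EXO1, a repair exonuclease, had 4.71, 6.23 and 3.82 CPM with shRNA 2, against 75.6, 72.9 and 62.3 CPM with control shRNA (log2 fold change -3.82 ± 0.19, edgeR adjusted p = 7.54e-07). XRCC2 and BRIP1 fell (-4.15 ± 0.14 and -3.53 ± 0.11). The 2 that did not pass were BRCA2 at 0.03 ± 0.10 and the damage kinase ATR at 0.21 ± 0.08. Of 16 replication-dependent histone genes, 15 fell, with a median of -2.24; HIST1H2BK, at -0.14 ± 0.10, did not pass. Their messengers mostly end in a stem-loop and carry no poly(A) tail, and the library kit selects messenger RNA, so the values cover the transcripts that the kit captured.

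Mitosis showed the deepest medians of all lists. All 26 genes for mitotic kinases and the spindle checkpoint fell, with a median log2 fold change of -3.55. MKI67, the proliferation antigen that coats mitotic chromosomes, had 18.9, 25 and 20.3 CPM with shRNA 2, against 433, 349 and 397 CPM with control shRNA (log2 fold change -4.18 ± 0.14, edgeR adjusted p = 1.44e-08). TOP2A, the topoisomerase that untangles chromosomes, had 22.1, 27.5 and 23.4 CPM with shRNA 2, against 490, 401 and 377 CPM with control shRNA (log2 fold change -4.10 ± 0.14, edgeR adjusted p = 1.44e-08). CCNB1, the cyclin partner of CDK1, had 7.52, 8.58 and 7.46 CPM with shRNA 2, against 90.9, 71.4 and 63.3 CPM with control shRNA (log2 fold change -3.24 ± 0.14, edgeR adjusted p = 7.33e-08). The controls held many times the shRNA 2 level of each. PLK1, BUB1, TTK and MAD2L1, which carry out or police chromosome attachment, fell (-3.53 ± 0.12, -3.64 ± 0.13, -3.22 ± 0.13 and -4.20 ± 0.20). AURKA, which matures the spindle poles, and CDC25B, a phosphatase that activates CDK1, were at the shallow end at -1.10 ± 0.11 and -0.98 ± 0.11. Of 26 genes of kinesins and the centromere, 25 fell with 6 libraries and all 26 with 5, with a median of -3.47; the one that differs is KIFC1, which lies in the MHC stretch and was low in replicate 1. KIF20A and KIF2C, motor proteins of late and early mitosis, fell (-3.70 ± 0.12 and -4.05 ± 0.20), as did the centromeric histone CENPA (-3.67 ± 0.20).

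The promoters of these mitotic genes are shown because they hold short motifs that the choice of the list did not use. The lines give the last 120 bases before the RefSeq start on the strand of the gene, build GRCh38.p14, with the cell cycle homology motif TTTGAA and the CCAAT box, on either strand, in capitals (ATTGG is CCAAT read from the other strand). The windows are MKI67 at chr10:128126424-128126543 on the minus strand, CDC20 at chr1:43358861-43358980 on the plus strand and CDCA8 at chr1:37692396-37692515 on the plus strand. CDC20 activates the ligase that ends mitosis, and CDCA8 is a subunit of the chromosomal passenger complex.
MKI67: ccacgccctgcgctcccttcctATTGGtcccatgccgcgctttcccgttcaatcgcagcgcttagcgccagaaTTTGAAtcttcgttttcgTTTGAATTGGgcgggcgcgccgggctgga
CDC20: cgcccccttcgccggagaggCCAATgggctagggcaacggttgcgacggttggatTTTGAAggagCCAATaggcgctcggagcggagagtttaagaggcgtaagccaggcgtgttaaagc
CDCA8: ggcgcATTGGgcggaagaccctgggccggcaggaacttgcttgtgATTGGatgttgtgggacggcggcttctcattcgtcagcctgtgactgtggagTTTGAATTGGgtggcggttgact
In the windows of MKI67 and CDCA8 a TTTGAA runs into an ATTGG, and the motifs share a base there. CDC20 had 2.72, 3.04 and 2.35 CPM with shRNA 2, against 43.8, 36.3 and 36.2 CPM with control shRNA (log2 fold change -3.83 ± 0.13, edgeR adjusted p = 1.69e-08), and CDCA8 had 2.12, 2.54 and 1.92 CPM with shRNA 2, against 29, 27 and 24.9 CPM with control shRNA (log2 fold change -3.60 ± 0.13, edgeR adjusted p = 2.31e-08). Both were lower in each shRNA 2 library, as MKI67 was.

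Motifs were counted in windows of 250 bases before to 50 after the start, on both strands, for the 12197 tested genes with a promoter in the RefSeq table. TTTGAA was found in 55.0% of the promoters of the mitotic kinase list and 70.8% of those of kinesins and centromere genes, against 10.9% of all genes tested. It was found in 31.0% of the promoters of the surface markers, a list that rose, and in 3.23% of those of the replication genes, a list that fell. The share was 19.8% among the 741 genes that fell past 2-fold and 15.2% among the 1141 that rose past 2-fold. CCAAT was found in 80.0% and 66.7% of those lists, 46.6% of the genes that fell, 33.4% of those that rose and 36.5% of all. GGCGGGAA, a form of the E2F motif, was found in 32.3% of replication promoters, 8.77% of the genes that fell, 2.98% of those that rose and 4.76% of all. A match is a description of letters in the window, not a site that was shown to be used.

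Regulators of the G1 phase changed unequally. Of 13 genes, 9 fell and 2 rose. CDKN1A, the p21 inhibitor of cyclin-dependent kinases, had 950, 753 and 786 CPM with shRNA 2, against 212, 217 and 200 CPM with control shRNA (log2 fold change 2.00 ± 0.11, edgeR adjusted p = 1.68e-07). CCND2, a D-type cyclin, rose (0.43 ± 0.08), while CCND3 fell (-0.59 ± 0.10), as did CCNE2 (-1.80 ± 0.15). CDK2 fell (-2.35 ± 0.09), as did the phosphatase CDC25A (-3.52 ± 0.15); CDK6 was at -0.18 ± 0.09 and did not pass. Among 15 E2F and RB family genes, 12 fell and 0 rose. E2F1, an activator of replication genes, had 3.54, 2.12 and 2.08 CPM with shRNA 2, against 15.5, 17.9 and 17 CPM with control shRNA (log2 fold change -2.70 ± 0.20, edgeR adjusted p = 2.86e-06). E2F8, a repressor of the same family, fell (-3.78 ± 0.17), whereas RB1 itself, at 0.26 ± 0.11, and E2F3, at 0.15 ± 0.08, did not pass.

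MYC and the machinery of growth were lower. MYC, the transcription factor of growth and ribosome production, had 125, 125 and 130 CPM with shRNA 2, against 514, 531 and 494 CPM with control shRNA (4.01-fold lower, edgeR adjusted p = 3.43e-08). Its level was lower in each shRNA 2 library than in any control, with no overlap. Of the other members of its network, MXD1, an antagonist that pairs with MAX, rose (0.99 ± 0.09), as did MLXIP (0.58 ± 0.17) and MXD4 (0.41 ± 0.16), while MAX was at 0.06 ± 0.09 and did not pass. Of 28 genes of nucleolar ribosome biogenesis, 27 fell and 0 rose, with a median of -0.94. BOP1, which processes the large-subunit RNA, had 21.5, 21.8 and 22 CPM with shRNA 2, against 70.7, 81.9 and 82.6 CPM with control shRNA (log2 fold change -1.83 ± 0.09, edgeR adjusted p = 1.01e-07). FBL, the RNA methyltransferase fibrillarin, fell (-1.07 ± 0.09), as did the nucleolin gene NCL (-0.89 ± 0.10) and NOP56 (-1.49 ± 0.10). RRN3, a factor of RNA polymerase I, was at -0.25 ± 0.11 and did not pass.

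Translation genes were lower too. Of 25 cytosolic ribosomal protein genes, 18 were called lower and 0 higher, with a median of -0.42; with all 9 libraries in 1 fit the lower count was 10. RPSA, of the small subunit, had 499, 618 and 579 CPM with shRNA 2, against 2047, 1773 and 1697 CPM with control shRNA (log2 fold change -1.69 ± 0.11, edgeR adjusted p = 6.08e-07), and RPL3, of the large subunit, fell (-0.93 ± 0.07). RPS19 and RPS24 were at -0.08 ± 0.14 and 0.10 ± 0.08 and did not pass. Of 14 initiation factors and their regulators, 12 fell and 1 rose with 6 libraries, 9 fell with 5, and 7 fell with all 9 in 1 fit. EIF4EBP1, the inhibitor of the cap-binding protein, fell (-1.44 ± 0.09), as did EIF4B (-1.10 ± 0.09). Of 20 aminoacyl-tRNA synthetases, 16 fell and 0 rose, with a median of -0.97; IARS fell (-1.84 ± 0.13), and WARS, at 0.28 ± 0.13, did not pass. Of 17 cytosolic chaperone and chaperonin genes, 13 fell and 0 rose, with CCT4 at -1.17 ± 0.11 and HSPD1, the mitochondrial chaperonin, at -0.87 ± 0.11. Of 23 proteasome genes, 13 fell and 1 rose; PSMB5, a catalytic subunit, rose (0.84 ± 0.09). PSMB8 and PSMB9, of the immunoproteasome, lie in the MHC stretch; without replicate 1 they were at -1.38 ± 0.12 and -1.92 ± 0.10 (edgeR adjusted p = 2.59e-07 and 2.65e-09). Of 17 endoplasmic reticulum chaperone genes, 4 were higher and 5 lower, against 31.7% and 30.8% of all genes, so the list does not stand out. HSPA5 (BiP) rose (0.37 ± 0.13) and the transcription factor XBP1 fell (-1.47 ± 0.12).

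The amino acid response was among the clearest metabolic changes. Of 26 genes of the ATF4 response, 24 fell and 2 rose, with a median of -1.50. PHGDH, which opens serine synthesis, had 16.7, 17.9 and 10.9 CPM with shRNA 2, against 143, 135 and 123 CPM with control shRNA (log2 fold change -3.12 ± 0.20, edgeR adjusted p = 1.2e-05). ASNS, asparagine synthetase, had 30.9, 37.9 and 23.5 CPM with shRNA 2, against 185, 167 and 127 CPM with control shRNA (log2 fold change -2.36 ± 0.23, edgeR adjusted p = 0.000198). SLC7A5, the transporter of large neutral amino acids, had 47.4, 48.8 and 35.4 CPM with shRNA 2, against 184, 241 and 207 CPM with control shRNA (log2 fold change -2.25 ± 0.15, edgeR adjusted p = 1.72e-06). All 3 were lower in each shRNA 2 library. ATF4 itself fell (-0.84 ± 0.11), and the 2 that rose were the transporters SLC7A11 (0.76 ± 0.21) and SLC1A4 (0.43 ± 0.09).

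Cholesterol and fatty acid synthesis fell as a group, and glycolysis changed member by member. Of 22 genes of sterol and fatty acid synthesis, 20 fell and 0 rose, with a median of -0.94. SCD, the desaturase that makes oleate, had 123, 110 and 121 CPM with shRNA 2, against 850, 653 and 715 CPM with control shRNA (log2 fold change -2.63 ± 0.12, edgeR adjusted p = 5.78e-08). FASN, fatty acid synthase, fell (-1.65 ± 0.26), as did the regulator SREBF1 (-1.97 ± 0.15). Of 22 glycolysis genes, 13 fell and 7 rose. HK1, a hexokinase, had 8.72, 7.18 and 7.87 CPM with shRNA 2, against 1.15, 1.37 and 1.76 CPM with control shRNA (log2 fold change 2.49 ± 0.18, edgeR adjusted p = 1.61e-06), and its relatives HK2 and HK3 rose (0.95 ± 0.11 and 1.00 ± 0.29). PFKL, a phosphofructokinase, had 15.4, 14.3 and 13.8 CPM with shRNA 2, against 63, 69.2 and 81 CPM with control shRNA (log2 fold change -2.27 ± 0.11, edgeR adjusted p = 9.35e-08), and LDHA, lactate dehydrogenase A, fell (-1.38 ± 0.12). The hexokinases, which open the pathway, were thus higher, and later steps were split. Of 27 nuclear-encoded respiratory chain genes, 7 rose and 6 fell with 6 libraries, 6 and 9 with 5, and 4 and 2 with all 9 in 1 fit, so that the balance depends on the fit. Of 17 genes of the mitochondrial ribosome and import, 13 fell and 0 rose, with MRPL17 at -1.69 ± 0.10 and TIMM50 at -1.45 ± 0.10. Of 14 iron and heme genes, 7 rose and 2 fell; besides HMOX1 and the ferritin chains, ALAS1, which opens heme synthesis, rose (1.10 ± 0.08), and the iron transporter SLC11A1 fell (-0.79 ± 0.20). Of 11 telomerase and shelterin genes, 8 fell and 2 rose, with TERF1, which binds telomere repeats, at -1.14 ± 0.11.

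The leukemia program was lower in part. Of 22 genes known as targets of KMT2A fusions, 16 fell and 2 rose, with a median of -0.59. MEIS1, the partner of HOX proteins, had 21.8, 24 and 21.7 CPM with shRNA 2, against 55, 64.6 and 58.3 CPM with control shRNA (log2 fold change -1.38 ± 0.09, edgeR adjusted p = 8.45e-07). BCL2, the survival factor, had 15.4, 20.1 and 14.4 CPM with shRNA 2, against 89.5, 95.9 and 105 CPM with control shRNA (log2 fold change -2.52 ± 0.13, edgeR adjusted p = 1.7e-07). FLT3, the receptor kinase on which this line depends, had 258, 297 and 269 CPM with shRNA 2, against 599, 632 and 625 CPM with control shRNA (log2 fold change -1.15 ± 0.08, edgeR adjusted p = 1.61e-06). These 3 were lower in every shRNA 2 library, but the HOXA cluster was not uniform. HOXA5, HOXA6 and HOXA10 fell (-1.12 ± 0.15, -1.28 ± 0.25 and -0.80 ± 0.08), HOXA9 was at 0.13 ± 0.09 and did not pass, and HOXA7 rose (0.83 ± 0.15). MYB fell (-0.41 ± 0.09), and CDK6, at -0.18 ± 0.09, did not pass.

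The chromatin partners of the fusion changed in both directions. Of 17 genes of the KMT2A complex and its cofactors, 10 fell and 2 rose, against 30.8% lower and 31.7% higher over all genes. MLLT3, the partner gene of the fusion in this line, fell (-1.39 ± 0.10), as did WDR5 (-1.55 ± 0.08), MEN1 (-0.93 ± 0.13) and KMT2A (-0.57 ± 0.07); reads of a fusion transcript and of the normal gene cannot be told apart in these counts. The elongation factors ELL2 and AFF4 rose (1.89 ± 0.14 and 1.04 ± 0.08). Of 20 Polycomb and DNA methylation genes, 8 fell and 5 rose: UHRF1, the recruiter of DNMT1, had 14, 21.5 and 21 CPM with shRNA 2, against 152, 133 and 160 CPM with control shRNA (log2 fold change -2.96 ± 0.18, edgeR adjusted p = 4.97e-06), and EZH2, the histone methyltransferase, fell (-1.56 ± 0.10). TET2, a DNA demethylase, rose (1.07 ± 0.07). Of 14 stem and progenitor transcription factors, 7 fell and 3 rose; BCL11A fell (-1.43 ± 0.10), as did GATA2 (-0.81 ± 0.25), while CITED2 and LMO2 rose (1.49 ± 0.12 and 1.23 ± 0.11).

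Receptors and their signalling genes changed in both directions, as genes in general did. Over all genes 31.7% rose and 30.8% fell, so members going both ways do not set these lists apart. Of 17 growth factor receptors, 8 rose and 5 fell. MERTK, the receptor by which macrophages take up dead cells, had 0.727, 0.84 and 0.552 CPM with shRNA 2, against 0.127, 0.063 and 0.15 CPM with control shRNA (log2 fold change 2.62 ± 0.37, edgeR adjusted p = 0.000156), while its relatives AXL and TYRO3 fell (-2.05 ± 0.16 and -1.94 ± 0.22). TGFBR1 and TGFBR2, the receptors for TGF-beta, rose (2.45 ± 0.13 and 1.83 ± 0.09). Of 15 ERK feedback genes, 7 rose and 3 fell; DUSP4, a phosphatase of ERK, had 24.8, 19.5 and 23.6 CPM with shRNA 2, against 2.42, 2.17 and 2.61 CPM with control shRNA (log2 fold change 3.25 ± 0.14, edgeR adjusted p = 4.29e-08), DUSP6 rose (1.47 ± 0.11) and ETV4 fell (-2.01 ± 0.13). Of 14 STAT5, PIM and SOCS genes, 8 rose and 4 fell; SOCS2 and CISH, feedback targets of STAT5, fell (-1.32 ± 0.09 and -0.92 ± 0.13), and SOCS3 and PIM1 rose (1.96 ± 0.10 and 1.16 ± 0.10).

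Transcription factors of the monocyte and macrophage line were mostly higher. Of 29 genes, 20 rose and 3 fell, with a median of 0.78, against 31.7% higher over all genes. MAF, a macrophage factor, had 0.948, 0.688 and 0.879 CPM with shRNA 2, against 0.0159, 0.0158 and 0.015 CPM with control shRNA (edgeR adjusted p = 2.12e-06). PPARG, the lipid-sensing nuclear receptor, had 1.99, 1.49 and 1.14 CPM with shRNA 2, against 0.207, 0.0945 and 0.135 CPM with control shRNA (log2 fold change 3.39 ± 0.35, edgeR adjusted p = 1.61e-05). The groups did not overlap in either gene, and the controls held too few reads of MAF for a fold to be given. SPI1 (PU.1), the master factor of the myeloid line, rose (1.09 ± 0.14), as did IRF8 (0.78 ± 0.08), KLF4 (1.33 ± 0.09) and MITF (2.10 ± 0.14), a lysosome and osteoclast factor. BATF3, a dendritic cell factor, fell (-2.20 ± 0.19), as did IRF1 (-0.74 ± 0.08) and CEBPA (-0.33 ± 0.10), whereas CEBPB, at -0.21 ± 0.15, and EGR1, at -0.36 ± 0.15, did not pass. In bulk RNA, more cells of a kind and more RNA per cell cannot be told apart, here and for every group that follows.

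Surface markers of monocytes and macrophages were mostly higher. Of 35 measured, 31 rose and 0 fell, with a median of 2.48. ITGAM (CD11b), the integrin of myeloid cells, had 155, 127 and 118 CPM with shRNA 2, against 16.6, 17.9 and 19.9 CPM with control shRNA (log2 fold change 2.89 ± 0.12, edgeR adjusted p = 3.79e-08). CD86, a costimulatory ligand, had 40.5, 43.3 and 48.2 CPM with shRNA 2, against 2.1, 1.91 and 1.92 CPM with control shRNA (log2 fold change 4.49 ± 0.11, edgeR adjusted p = 5.07e-09). CD36, a scavenger receptor for oxidised lipid, had 121, 98.3 and 116 CPM with shRNA 2, against 7.97, 4.51 and 4.45 CPM with control shRNA (log2 fold change 4.32 ± 0.30, edgeR adjusted p = 9.43e-05). Each of these was several times as high in the lowest shRNA 2 library as in the highest control. CSF1R, the receptor of macrophage growth factor, rose (2.01 ± 0.16), as did TREM2 (4.34 ± 0.35) and TYROBP (3.56 ± 0.15), the signalling adaptor of many such receptors. CD14, the lipopolysaccharide co-receptor that defines classical monocytes, stayed scarce, with 0.537, 0.573 and 0.776 CPM with shRNA 2, against 0.0797, 0.0945 and 0.0601 CPM with control shRNA (log2 fold change 3.00 ± 0.36, edgeR adjusted p = 5.01e-05), and so did the mannose receptor MRC1, with 0.253, 0.248 and 0.368 CPM with shRNA 2, against 0.0797, 0.0945 and 0.0451 CPM with control shRNA. CD33, EMR2 and CCR2, at 0.11 ± 0.09, 0.09 ± 0.10 and 0.36 ± 0.14, did not pass, and FCGR2B was low in replicate 1.

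Granule proteins of the promyelocyte stage did not move as a group. Of 13 measured, 6 rose and 4 fell, and the median was 0.11 with 6 libraries and -0.11 with 5. CTSG, the protease cathepsin G, had 105, 99.2 and 91.4 CPM with shRNA 2, against 946, 862 and 810 CPM with control shRNA (log2 fold change -3.13 ± 0.10, edgeR adjusted p = 1.32e-08). MPO, myeloperoxidase, had 50.1, 29.2 and 43.3 CPM with shRNA 2, against 130, 66.2 and 99.4 CPM with control shRNA (log2 fold change -1.25 ± 0.35, edgeR adjusted p = 0.0308), and AZU1 (azurocidin) fell (-1.88 ± 0.31). RNASE3 and BPI, which are antimicrobial proteins, rose (2.42 ± 0.12 and 1.41 ± 0.24), and ELANE (neutrophil elastase), at 0.11 ± 0.23, did not pass. The specific granule genes LTF, LCN2, CAMP and MMP8 held too few reads in both groups to be tested. MPO, ELANE, CD33 and FLT3, markers of immature myeloid cells, were measured in all libraries.

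Lysosomal genes rose broadly. Of 37 hydrolases and membrane proteins, 30 rose and 1 fell, with a median of 1.29. CTSB (cathepsin B) had 1219, 830 and 862 CPM with shRNA 2, against 99, 93.7 and 95.6 CPM with control shRNA (log2 fold change 3.35 ± 0.15, edgeR adjusted p = 1.69e-07). CTSD (cathepsin D) had 132, 65.2 and 70.3 CPM with shRNA 2, against 8.48, 9.36 and 11 CPM with control shRNA (log2 fold change 3.23 ± 0.35, edgeR adjusted p = 0.000919). ATP6V0D1, a subunit of the proton pump that acidifies the lysosome, had 132, 88.4 and 99.5 CPM with shRNA 2, against 20.4, 20.1 and 19.1 CPM with control shRNA (log2 fold change 2.44 ± 0.14, edgeR adjusted p = 7.8e-07). All 3 lay wholly above the controls. LAMP1, PSAP and GRN rose (1.26 ± 0.11, 2.22 ± 0.16 and 2.20 ± 0.20); GUSB fell (-0.46 ± 0.10), and LAMP2, at -0.18 ± 0.10, did not pass. The regulators TFEB and TFE3, which bind E-box motifs of lysosomal promoters, rose (0.77 ± 0.14 and 1.30 ± 0.12). The promoters of CTSD and ATP6V0D1 are shown because each holds that motif, CACGTG, in capitals, in the last 120 bases before the start (CTSD at chr11:1763928-1764047, minus strand; ATP6V0D1 at chr16:67481158-67481277, minus strand; GRCh38.p14, strand of the gene).
CTSD: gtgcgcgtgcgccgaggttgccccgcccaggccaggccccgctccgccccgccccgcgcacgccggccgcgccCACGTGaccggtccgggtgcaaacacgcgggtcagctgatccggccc
ATP6V0D1: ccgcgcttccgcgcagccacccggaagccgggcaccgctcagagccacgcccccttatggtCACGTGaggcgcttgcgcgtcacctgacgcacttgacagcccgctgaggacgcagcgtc
CACGTG was found in 33.3% of lysosomal promoters, 30.4% of nucleolar ones, 7.45% of the genes that rose past 2-fold, 12.4% of those that fell and 9.72% of all genes tested. The nucleolar list, which fell, and the lysosomal list, which rose, thus held this motif at like shares. The longer form GTCACGTG, which contains it, was found in 25.0% of lysosomal promoters, 4.35% of nucleolar ones, 12.9% of those of the replication genes, 3.33% of the genes that rose, 3.91% of those that fell and 4.12% of all. GAGGAAGT, a form of the PU.1 motif, was found in 3.45% of the promoters of the surface markers, 3.94% of the genes that rose, 2.02% of those that fell and 2.69% of all.

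Lipid handling, matrix and adhesion genes of macrophages were higher as well. Of 17 genes of lipid uptake, storage and efflux, 11 rose and 2 fell; 4 entered the test only through shRNA 2, among them APOE and OLR1. APOE, the lipoprotein of lipid-exporting macrophages, had 8.85, 3.13 and 4.19 CPM with shRNA 2, against 0.0319, 0.126 and 0.0601 CPM with control shRNA (log2 fold change 6.17 ± 0.64, edgeR adjusted p = 0.000258). OLR1, the receptor of oxidised low density lipoprotein, had 13.3, 7.56 and 5.54 CPM with shRNA 2, against 0.0478, 0.0473 and 0.015 CPM with control shRNA (log2 fold change 7.84 ± 0.54, edgeR adjusted p = 1.74e-05), and the efflux pump ABCA1 rose (2.71 ± 0.12). GPNMB, a glycoprotein of lipid-laden macrophages, had 85.5, 54.7 and 52.6 CPM with shRNA 2, against 1.08, 0.961 and 0.931 CPM with control shRNA (log2 fold change 6.03 ± 0.24, edgeR adjusted p = 1.03e-06). The level was under 1 CPM in most control libraries for these genes. Of 16 matrix genes, 14 rose and 1 fell, with 5 that entered only through shRNA 2. VCAN (versican) had 1.58, 2.73 and 2.9 CPM with shRNA 2, against 0.0478, 0.0158 and 0.015 CPM with control shRNA (log2 fold change 6.44 ± 0.44, edgeR adjusted p = 9.68e-07), and the gelatinase MMP9 had 1.36, 0.764 and 1.25 CPM with shRNA 2, against 0, 0.0315 and 0.015 CPM with control shRNA (edgeR adjusted p = 7.06e-06). MMP2 fell (-0.52 ± 0.19), and TIMP1, at 0.04 ± 0.10, did not pass. Of 13 integrins tested with 6 libraries, 11 rose and 1 fell. ITGB3 rose most of these (2.84 ± 0.22), ITGAE fell (-0.44 ± 0.13), and ITGA2B, at -0.93 ± 0.42, did not pass. Without replicate 1, 14 integrins were tested, 10 rose and 2 fell, and the largest log2 fold change was 6.88.

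Genes of the innate immune response rose, with the chemokines at the top of all lists. Of 11 chemokines measured, 10 rose, with a median of 3.13; 20 were listed, and CCL4 and CCL4L2 entered the test only through shRNA 2. CXCL8, which attracts neutrophils, had 309, 282 and 276 CPM with shRNA 2, against 11.9, 3.61 and 4.37 CPM with control shRNA (log2 fold change 5.46 ± 0.65, edgeR adjusted p = 0.00215). CCL3 had 84.1, 75 and 79.3 CPM with shRNA 2, against 1.34, 1.01 and 1.25 CPM with control shRNA (log2 fold change 6.07 ± 0.13, edgeR adjusted p = 3.08e-09). CCL4 had 5.59, 5.73 and 5.05 CPM with shRNA 2, against 0.0159, 0 and 0 CPM with control shRNA, and the controls held 1 read of it in all. CXCL8 also varied among the controls, where replicate 1 was the highest. CCL5, which attracts T cells, was at -0.18 ± 0.08 and did not pass. Copies of CCL3 and CCL4 share reads, so the split between CCL3, CCL3L3, CCL4 and its copies is uncertain.

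Receptors and cytokines of the same response followed in part. Of 18 pattern recognition receptors, 13 rose and 0 fell, with 4 that entered only through shRNA 2. TLR8, the sensor of single-stranded RNA, had 5.15, 5.2 and 5.03 CPM with shRNA 2, against 0.143, 0.126 and 0.0901 CPM with control shRNA (log2 fold change 5.41 ± 0.22, edgeR adjusted p = 3.5e-08), TLR4 rose (1.79 ± 0.14), and NLRP3, at -0.13 ± 0.09, did not pass. Of 17 cytokine genes, 10 rose and 3 fell. IL1B (interleukin 1 beta) had 53.7, 48.3 and 55.9 CPM with shRNA 2, against 0.924, 0.756 and 0.736 CPM with control shRNA (log2 fold change 6.04 ± 0.13, edgeR adjusted p = 3.08e-09), and CSF1, the macrophage growth factor, had 21.6, 11 and 9.05 CPM with shRNA 2, against 0.239, 0.252 and 0.225 CPM with control shRNA (log2 fold change 5.86 ± 0.44, edgeR adjusted p = 6.42e-05). TNF, which replicate 1 lacks, rose without it (log2 fold change 1.74 ± 0.10, edgeR adjusted p = 5.71e-09). IL12A and the growth factor VEGFA fell (-1.42 ± 0.16 and -0.75 ± 0.08). Of 6 genes of the phagocyte NADPH oxidase, 4 rose; CYBB, its catalytic subunit, had 33.4, 27 and 20.7 CPM with shRNA 2, against 0.621, 0.268 and 0.255 CPM with control shRNA (log2 fold change 6.16 ± 0.41, edgeR adjusted p = 6.75e-05). NCF1 shares reads with its pseudogene NCF1C, which was also among the largest noncoding rises. Of 10 complement genes, 6 rose and 1 fell; C3, the central component, rose (5.45 ± 0.13), and C1QA, of the first component, had 1.07, 0.535 and 0.756 CPM with shRNA 2, against 0.0319, 0.0158 and 0 CPM with control shRNA.

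NF-kB feedback genes rose nearly without exception, and the interferon list did so in part. Of 17 NF-kB subunits and feedback genes, 15 rose and 1 fell, with a median of 1.40. NFKBIA, the inhibitor that NF-kB induces, had 119, 116 and 108 CPM with shRNA 2, against 34.1, 37.6 and 33.9 CPM with control shRNA (log2 fold change 1.72 ± 0.08, edgeR adjusted p = 8.06e-08). BIRC3, an apoptosis inhibitor of the same feedback, had 4.11, 4.37 and 4.35 CPM with shRNA 2, against 0.0159, 0.0945 and 0.105 CPM with control shRNA (log2 fold change 5.86 ± 0.35, edgeR adjusted p = 4.07e-07). Both were higher in each shRNA 2 library. NFKBIB fell (-0.49 ± 0.12) and RELA, at 0.03 ± 0.10, did not pass. Of 14 AP-1 and immediate early genes, 8 rose and 1 fell; JUN had 54.6, 44.3 and 62 CPM with shRNA 2, against 5.27, 6.19 and 6.2 CPM with control shRNA (log2 fold change 3.20 ± 0.14, edgeR adjusted p = 5.52e-08), FOS rose (2.22 ± 0.11) and IER2 fell (-0.73 ± 0.12). Of 29 interferon-stimulated genes, 18 rose and 4 fell, with a median of 0.67. OAS1, a sensor of double-stranded RNA, had 7.52, 7.24 and 8.19 CPM with shRNA 2, against 2.15, 1.64 and 1.71 CPM with control shRNA (log2 fold change 2.08 ± 0.16, edgeR adjusted p = 1.87e-06), and IFIT3 rose (2.17 ± 0.14). IFITM1, which blocks viral entry, fell (-1.45 ± 0.36), as did IFITM3 (-1.09 ± 0.17), while MX1, at 0.27 ± 0.23, and DDX58 (RIG-I), at -0.09 ± 0.08, did not pass.

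Antigen presentation could be read only in part with all 6 libraries. Of 13 genes of MHC class II and costimulation measured without replicate 1, 10 rose and 2 fell, with a median of 1.81; with it 3 of 11 rose and 2 fell. HLA-DRA, the alpha chain of HLA-DR, had 1.2, 17.3 and 12.8 CPM with shRNA 2, against 4.24, 4.84 and 3.86 CPM with control shRNA and without replicate 1 rose (log2 fold change 1.81 ± 0.15, edgeR adjusted p = 2.2e-07). CD74, the invariant chain, lies elsewhere and fell (-0.29 ± 0.09). The class I genes HLA-B and HLA-C were lower without replicate 1, at -1.54 ± 0.11 and -1.72 ± 0.11 (edgeR adjusted p = 3.71e-08 and 1.34e-08). They lie in the MHC stretch, where 12 of 43 listed genes rose and 18 fell without replicate 1, against 0 and 1 of 43 with it. In the listed genes of the chromosome 17 stretch, 4 of 9 rose and 0 fell without replicate 1, and none of 9 was called with it.

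Among p53 targets, 13 of 24 rose and 3 fell, with a median of 0.46. MDM2 had 1502, 1598 and 1656 CPM with shRNA 2, against 492, 487 and 451 CPM with control shRNA (log2 fold change 1.75 ± 0.08, edgeR adjusted p = 8.06e-08), and BTG2, an antiproliferative gene, had 173, 144 and 153 CPM with shRNA 2, against 17.4, 17.5 and 20.6 CPM with control shRNA (log2 fold change 3.10 ± 0.11, edgeR adjusted p = 1.7e-08). With CDKN1A, they lay above every control in each shRNA 2 library. BBC3 (PUMA), which triggers cell death, fell (-0.55 ± 0.17), BAX rose (0.30 ± 0.11) with 6 libraries and did not pass with 5 (0.19 ± 0.11, edgeR adjusted p = 0.146), and PMAIP1 (NOXA), at 0.13 ± 0.13, did not pass. Of 19 genes of the BCL2 family and caspases, 11 rose and 2 fell. BCL2A1, a survival protein under NF-kB, had 32.2, 26.5 and 31 CPM with shRNA 2, against 2.1, 1.42 and 1.4 CPM with control shRNA (log2 fold change 4.20 ± 0.18, edgeR adjusted p = 6.9e-08), MCL1 rose (0.80 ± 0.08), and the pro-death BMF rose (2.27 ± 0.11), in contrast to the fall of BCL2.

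Writers and erasers of m6A, splicing factors and export genes were mostly lower, while the other m6A readers were not. Of 13 m6A writers and erasers, 8 fell and 2 rose, with a median of -0.30. METTL14 fell (-0.63 ± 0.10), as did the erasers FTO and ALKBH5 (-0.70 ± 0.10 and -0.30 ± 0.09); KIAA1429 (VIRMA), the scaffold of the writer complex, rose (0.48 ± 0.09), and METTL3, the catalytic subunit, at 0.07 ± 0.09, did not pass. Of 12 other m6A readers, 4 fell and 2 rose. YTHDF3 rose (0.57 ± 0.10), while YTHDF1, YTHDF2 and YTHDC2, at -0.11 ± 0.08, -0.10 ± 0.09 and -0.10 ± 0.09, did not pass. PRRC2A, a reader gene of chromosome 6 that was low in replicate 1, had 0.0948, 676 and 716 CPM with shRNA 2. The controls had 1471, 1536 and 1875 CPM of it. Without replicate 1 the lowest log2 fold change among these readers was -1.22, and again 4 fell and 2 rose. Of 26 SR and hnRNP splicing factors, 18 fell and 1 rose, with a median of -0.55. SRSF2 had 113, 132 and 108 CPM with shRNA 2, against 272, 288 and 226 CPM with control shRNA (log2 fold change -1.13 ± 0.11, edgeR adjusted p = 1.41e-05), and SRSF3, an SR protein that YTHDC1 is known to bind, had 219, 235 and 215 CPM with shRNA 2, against 436, 387 and 330 CPM with control shRNA (log2 fold change -0.77 ± 0.11, edgeR adjusted p = 0.000159). Both were lower in all shRNA 2 libraries. Of 20 genes of mRNA export, polyadenylation and nuclear decay, 14 fell and 2 rose: NUDT21, which chooses the polyadenylation site, fell (-1.10 ± 0.11), as did SKIV2L2 (-0.89 ± 0.10), the helicase of the nuclear exosome, and the export receptor NXF1 rose (0.31 ± 0.08).

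Nuclear noncoding RNAs and the hosts of small nucleolar RNAs parted ways. Of 14 such genes, 11 fell and 2 rose; the 2 that rose were MALAT1 and NEAT1, the scaffold of paraspeckles, which had 222, 186 and 189 CPM with shRNA 2, against 65.3, 66.4 and 102 CPM with control shRNA (log2 fold change 1.37 ± 0.19, edgeR adjusted p = 0.000733). Among the hosts, SNHG15 and SNHG1 fell (-1.22 ± 0.10 and -0.92 ± 0.11), and ZFAS1, at -0.17 ± 0.08, did not pass. The largest noncoding rises with at least 10 CPM were PCDHB18, PCDHB19P, EMR4P, ITGB2-AS1, LINC01176 and NCF1C, at log2 fold changes of 8.36, 7.60, 4.82, 3.86, 3.73 and 3.66. ITGB2-AS1 lies antisense to the integrin gene ITGB2, which rose (1.57 ± 0.13); the kit marks strand, but its use in the counting is not given, so their reads cannot be told apart. The largest noncoding falls were HMMR-AS1, PRC1-AS1, DDX12P, SNORD86, FAM86DP and LOC100288152, at -3.70, -2.68, -2.49, -2.32, -2.24 and -2.10. The first 2 lie antisense to mitotic genes and SNORD86 within NOP56, so the same limit holds for them.

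Protocadherins, adhesion proteins best known from neurons, were among the largest rises. The list holds clustered genes and also PCDH7 and PCDH9, which lie outside the clusters and rose (1.40 ± 0.28 and 0.87 ± 0.33). Of 17 measured in all, 5 of them entering only through shRNA 2, 15 rose and 0 fell, with a median of 1.40. PCDHB15 had 23.9, 23 and 21.2 CPM with shRNA 2, against 0.207, 0.205 and 0.21 CPM with control shRNA (log2 fold change 6.77 ± 0.14, edgeR adjusted p = 2.58e-09). PCDHB10 had 6.07, 7.79 and 9.91 CPM with shRNA 2, against 0.0637, 0.126 and 0.15 CPM with control shRNA (log2 fold change 6.11 ± 0.30, edgeR adjusted p = 1.16e-07). PCDHB5 had 2.21, 1.7 and 2.72 CPM with shRNA 2 and no read in any control. Among the members tested, the beta genes ran from PCDHB2 at 1.49 ± 0.41 upwards. The gamma genes ran from PCDHGC3 at 0.60 ± 0.13 to PCDHGB2 at 0.82 ± 0.12. The 5 that entered only through shRNA 2 were PCDHA4 and the beta genes PCDHB2, PCDHB5, PCDHB10 and PCDHB16. Those 5 had to be higher with shRNA 2, so the gap between the clusters describes the members that entered and lends no support. The genes of a cluster resemble each other, and gamma genes share exons, so reads may be split between them.

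Markers of other cell types were measured beside the macrophage genes. Of 15 lymphocyte markers, 7 were measured, and their summed level was 75.7 to 92.6 CPM with shRNA 2, against 95.4 to 106 CPM with control shRNA. CD3D, CD3E, CD3G, CD2, CD7 and MS4A1, which define T and B cells, held too few reads to be tested; PAX5 and NCAM1 fell (-0.64 ± 0.09 and -0.64 ± 0.09) and NKG7 rose (0.96 ± 0.14). Of 15 erythroid and megakaryocyte markers, 6 were measured, with sums of 6 to 6.54 CPM with shRNA 2 and 2.65 to 4.4 CPM with control shRNA; the globins held too few reads, and PF4 had no read in any of the 6 libraries. Of 15 epithelial, stromal and endothelial markers, 7 were measured, with sums of 199 to 221 CPM with shRNA 2 and 40 to 42.6 CPM with control shRNA. Most of that gain was PECAM1, an adhesion protein that monocytes also carry, with 189, 168 and 175 CPM with shRNA 2, against 26.8, 19.7 and 22.1 CPM with control shRNA (log2 fold change 2.97 ± 0.12, edgeR adjusted p = 3.59e-08); EPCAM, CDH1, KRT19 and CDH5 held too few reads. Of 19 osteoclast and dendritic cell markers, 13 were measured, 7 of which entered only through shRNA 2; 12 rose and 1 fell, with sums of 207 to 259 CPM with shRNA 2 and 22.9 to 26.1 CPM with control shRNA. CD1C and CD1A, lipid-presenting molecules of dendritic cells, had 0.158, 0.21 and 0.266 CPM and 0.6, 0.21 and 0.531 CPM with shRNA 2 and no read in any control. CCR7, the lymph node homing receptor, rose (2.61 ± 0.39), and OCSTAMP fell (-0.54 ± 0.19). The part of these markers in the macrophage result was not tested.

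**Figure D5:**
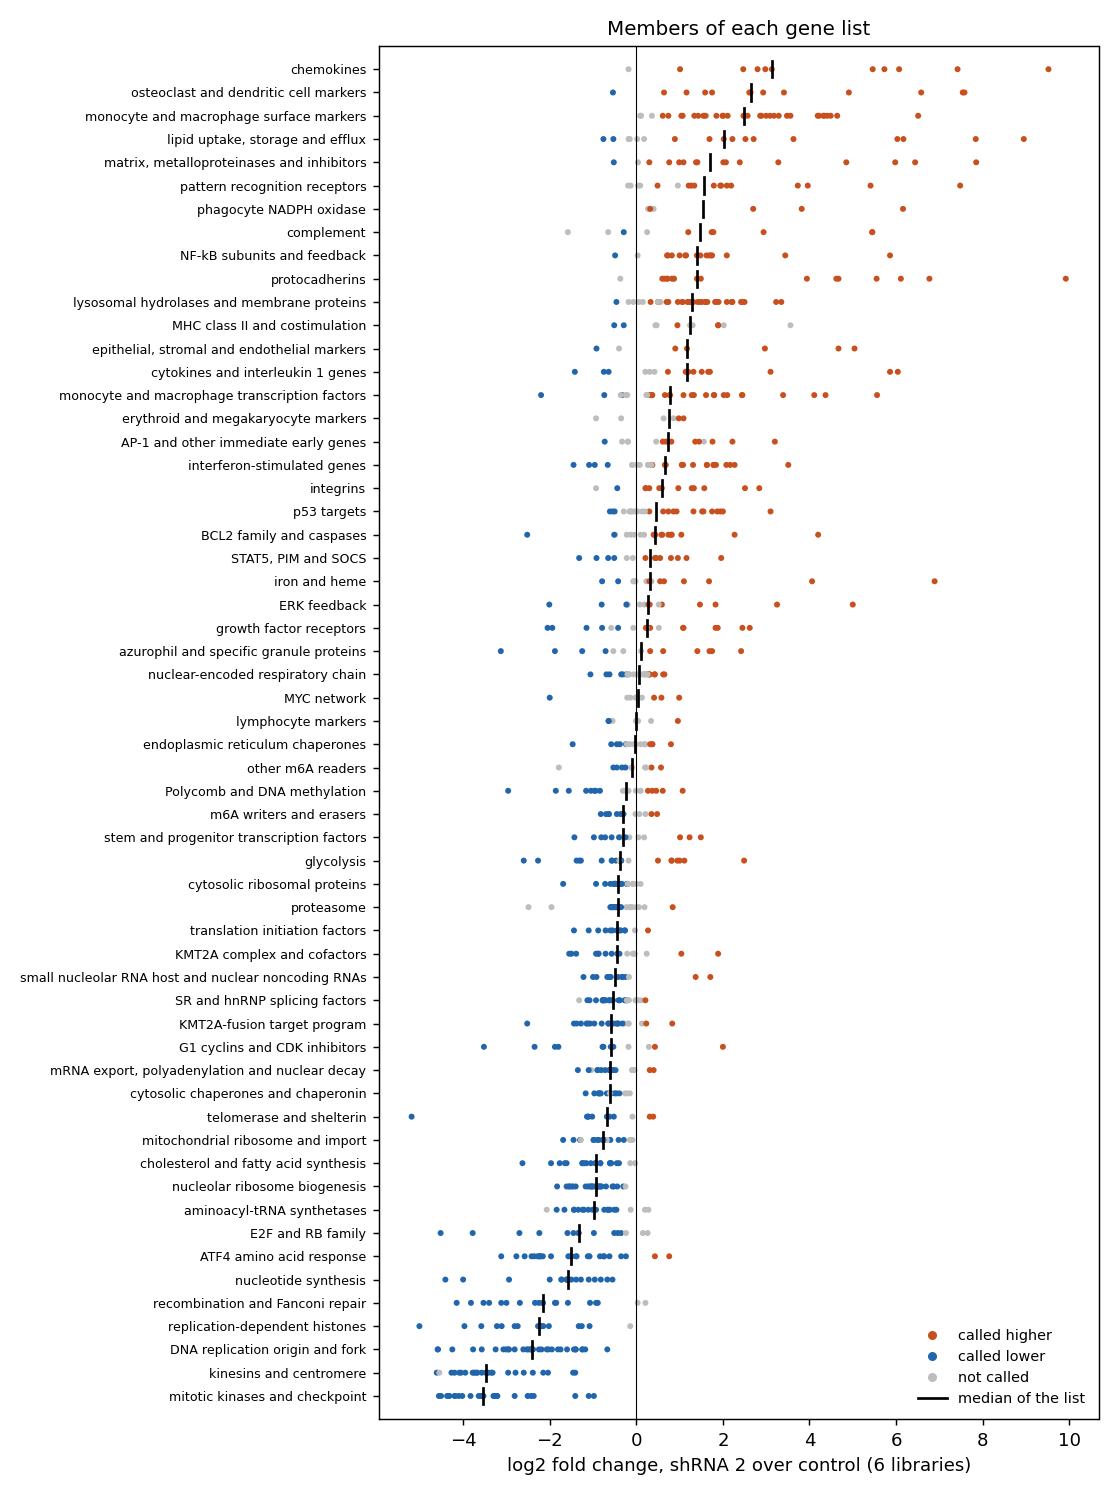
Log2 fold change of shRNA 2 over control with 6 libraries for the tested members of the 58 gene lists, 1 row per list in order of its median (black bar), which covers only members that entered the test. Red points were called higher, blue lower and grey not called; the mitotic lists lie lowest, with medians of -3.55 and -3.47, and the chemokines highest, at 3.13.

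Across the lists, the fits with and without replicate 1 gave like medians. Of 58 lists outside the repeated stretches, 8 had a median below -1 and 14 above 1; the medians with and without replicate 1 differed by 0.57 for MHC class II and by at most 0.28 for the others, and 1 list, the granule proteins, had the opposite sign. The lists were chosen with earlier results of these data known, so their counts describe them and do not test them.

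Many genes differed between shRNA 2 and shRNA 1, and in the shRNA 1 libraries YTHDC1 was close to its control level. Of 16746 genes tested with 9 libraries, 5365 (32.0%) differed: 2598 (15.5%) were higher with shRNA 2 than with shRNA 1 and 2767 (16.5%) lower; without shRNA 2 replicate 1, 4433 of 17113 (25.9%) did, 2181 (12.7%) higher and 2252 (13.2%) lower. YTHDC1 stood at 117, 103 and 134 CPM in the shRNA 1 libraries, which overlaps the 134, 139 and 122 CPM of the controls. Leaving out shRNA 2 replicate 1, which has no read of it, its log2 difference of shRNA 2 from shRNA 1 was -1.05 (edgeR adjusted p = 0.000264), and with all 9 libraries it was -1.63 and did not pass (edgeR adjusted p = 0.434). Without that replicate, 24 of 26 mitotic kinase and checkpoint genes and 27 of 34 replication genes were lower with shRNA 2, and 22 surface markers and 9 chemokines were higher. For the p53 targets the balance was the other way, with 2 higher and 8 lower than with shRNA 1, and 9 granule proteins were lower and 0 higher. Whether these differences follow the lower YTHDC1 level was not tested.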

How the data were processed

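The authors deposited raw read counts, 1 row per transcript, in a single table of the 9 libraries. Per the submitters' processing notes, STAR and DESeq were used on the human build hg19; the sources used here do not give their roles, settings and versions, the counting program or its use of strand. In all there were 48104 rows; 9509 symbols had more than 1. In 80.7% of the 7288 such symbols reaching 100 counts, the next row lay less than 5% under the highest, so the row with the highest total was kept and rows were not summed. Of 80 symbols that a spreadsheet had turned into dates, 78 were restored and 2 left out. No per-sample column was unused (0). RefSeq names, chromosomes, gene types and spans (GRCh38.p14) matched 97.7% of rows; promoter sequences are RefSeq's on that build, which is not the build of the counts.

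Tests used edgeR 4.0.16 (R 4.3.3, limma 3.58.1) on the counts: filterByExpr, TMM scaling, robust dispersions and two-sided quasi-likelihood F-tests, with Benjamini-Hochberg adjustment over all genes tested and a threshold of 0.05. Changes past 2-fold were tested with glmTreat. Levels in CPM use TMM factors over all 9 libraries, while fold changes come from the 6-library fit. Standard errors follow from the fold change and its F statistic. A count of 0 leaves room for up to 3 counts, which is 0.113, 0.0589 and 0.0635 CPM in the shRNA 2 libraries and 0.0447, 0.0457 and 0.0449 CPM in the controls; such floors and all intervals cover counting error only. The fit was tried on counts simulated for 16454 genes. Means came from the controls and spread from the 5 libraries without shRNA 2 replicate 1. Only 67, 67 and 66 genes were changed, by 1.5-fold, 2-fold and 4-fold. Of these, 53.7%, 82.1% and 93.9% were recovered, and 4.97% of all calls were false. The simulation held no missing reads and few changed genes. Its rates thus do not describe the fit with all 6 libraries, where 62.6% of genes were called. Replicates differed by more than sampling noise in each pair. Named genes were set by a rule: among genes called the same way with and without shRNA 2 replicate 1, with every shRNA 2 library beyond every control and at least 10 CPM in the higher group, the 15 rises and 15 falls with the largest log2 fold change, the 12 and 12 with the largest difference of mean CPM, 6 and 6 noncoding genes, 8 and 8 differences from shRNA 1, the 10 highest genes low in shRNA 2 replicate 1, and YTHDC1; examples from the gene lists were chosen after their values were seen. The comparison, the gene lists and the rules were chosen with earlier results of these data known. Alternatives were another scaling (RLE), no filter, a filter at a mean of 100 counts, DESeq2 1.42.0, all 9 libraries in 1 fit, the first row of a symbol, a replicate block and each replicate left out. Some genes of the lists are not reported here by name.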

Additional observations from a re-analysis of the deposited data

Results flagged for a closer look

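The values here were marked because a direct test of shRNA 2 against shRNA 1 over all 9 libraries passed, with and without shRNA 2 replicate 1; they are the 8 largest differences each way under the naming rule, which takes genes whose shRNA 2 and shRNA 1 libraries do not overlap, given as log2 differences of shRNA 2 from shRNA 1 with edgeR's adjusted p. On the higher side, ACP5 had 53.3, 27.9 and 23.4 CPM in the shRNA 2 libraries, against 0.615, 0.469 and 0.318 CPM in those of shRNA 1, a difference of 6.22 (edgeR adjusted p = 4.98e-06). CSF1 had 21.6, 11 and 9.05 CPM in the shRNA 2 libraries, against 0.218, 0.178 and 0.206 CPM in those of shRNA 1, a difference of 6.10 (edgeR adjusted p = 2.08e-06), and its level with shRNA 1 lay near the 0.239, 0.252 and 0.225 CPM of the controls. SPP1, KCP and SLC26A11 differed by 5.67, 5.66 and 4.81, with 1.81, 0.987 and 1.03 CPM, 0.218, 0.259 and 0.262 CPM and 0.476, 0.307 and 0.299 CPM in the shRNA 1 libraries. GPNMB and CLEC7A differed by 4.78 and 4.61. A2M, a protease inhibitor, had 142, 88.6 and 90.3 CPM in the shRNA 2 libraries, against 7.48, 4.29 and 6.02 CPM in those of shRNA 1, a difference of 4.17 (edgeR adjusted p = 1.05e-05).

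On the lower side, CA2 (carbonic anhydrase 2) had 2.4, 2.48 and 1.65 CPM in the shRNA 2 libraries, against 74, 66.3 and 50.3 CPM in those of shRNA 1, a difference of -4.87 (edgeR adjusted p = 1.91e-06), and the controls had 23.6, 16 and 14.8 CPM. MPO had 50.1, 29.2 and 43.3 CPM in the shRNA 2 libraries, against 351, 283 and 236 CPM in those of shRNA 1, a difference of -2.83 (edgeR adjusted p = 0.000183), and the controls, at 130, 66.2 and 99.4 CPM, lay between the shRNAs. The mitotic genes DLGAP5, DEPDC1, MKI67, CDK1 and MAD2L1 differed by -2.96, -2.88, -2.81, -2.81 and -2.74; MKI67 had 18.9, 25 and 20.3 CPM in the shRNA 2 libraries, against 162, 127 and 161 CPM in those of shRNA 1. HSD17B8, a steroid dehydrogenase gene of the MHC stretch, had no read in shRNA 2 replicate 1, with 0, 3.34 and 2.62 CPM in the shRNA 2 libraries, against 19.2, 24.2 and 14.6 CPM in those of shRNA 1, a difference of -3.22 (edgeR adjusted p = 0.0334) that was -2.70 without that replicate (edgeR adjusted p = 4.7e-06). YTHDC1 itself had 0, 61.4 and 52.4 CPM in the shRNA 2 libraries, against 117, 103 and 134 CPM in those of shRNA 1, and its part in these differences was not tested.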

How the results depend on the processing

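Higher and lower calls of shRNA 2 against control stayed within 1.5 times of 5219 and 5076 under all 13 alternatives: 5172 and 5072 with RLE scaling, 5101 and 5572 with no filter, 4203 and 4193 at a mean of at least 100 counts, 4902 and 5124 with DESeq2, 4600 and 4589 with all 9 libraries, and 5192 and 5027 with the first row of each symbol. Leaving out 1 replicate gave 4545 to 5368 higher and 4484 to 5456 lower; past 2-fold it gave 1415 to 1686 and 886 to 1135. At a mean of at least 100 counts the higher calls past 2-fold numbered 965, against 1611; fewer genes of low level were then tested. Against shRNA 1, leaving out 1 replicate gave 2033 to 3030 higher and 1842 to 3203 lower; the lowest, 1842 without shRNA 2 replicate 3, is over 1.5 times below 2767, and the cause was not tested. Leaving out shRNA 1 replicates, which gave some of these values, was added after seeing the data. With 1 replicate left out YTHDC1 ranged from -2.31 to -1.21 on the log2 scale, and under all alternatives it passed only without shRNA 2 replicate 1 (edgeR adjusted p = 6.53e-07). The replicate numbers of the labels did not pair the libraries: libraries of the same number deviated together at correlations of 0.015, 0.039 and 0.005. With the replicate number as a block, 4828 genes were higher and 4690 lower, 1465 and 933 past 2-fold, 2602 and 2708 against shRNA 1, and YTHDC1 was at -2.70. Of 832 values of the 64 named genes, 813 kept their call and direction, 19 lost the call and 0 reversed; the 19 belong to ACTB, CCL4L1, CCL4L2, EEF2 and RPL13A. CCL4L1 and CCL4L2, low in shRNA 2 replicate 1, missed the threshold without any 1 control or without shRNA 2 replicate 2 or 3, at 6.69 to 7.63 on the log2 scale (edgeR adjusted p = 0.0708 to 0.103); EEF2, at -0.31 to -0.23, missed it under 7 alternatives. No list median changed sign under RLE, DESeq2 or the 9-library fit. Without shRNA 2 replicate 1, the median of 1 of the 58 lists outside the repeated stretches did, that of azurophil and specific granule proteins. The listed chromosome 17 stretch, low in that replicate, went from -0.22 to 0.31. The depth of shRNA 2 replicate 1, 26455645 counts, limits what can be seen of genes near its floor.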

Other observations

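Some shares by gene class belong to no list. Chromosome 8 had 39.2% of its tested genes higher and 30.8% lower. By level, the genes of the fourth of 5 classes, counted from the lowest, were 28.6% higher and 40.4% lower. These are shares of genes, which are not independent, and no test was made of them.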
